A study of Homo sapiens with 8 samples.

Results

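The 10 genes described here belong to the integrated stress response: ATF4 and DDIT3, which encode transcription factors, PPP1R15A and TRIB3, which act back on the pathway, DDIT4 and SESN2, which restrain the growth kinase complex mTORC1, CHAC1, which breaks down glutathione, and the amino acid synthesis enzymes ASNS, PSAT1 and PHGDH. They were chosen by name, with earlier results of these data known, and all 10 were found among the 24598 genes of the deposited table. RNA was measured in CCD-1077Sk, a fibroblast line from normal human skin, 6 h after treatment, in 4 groups of 2 libraries. The vehicle group received bovine serum albumin, citric acid and DMSO, the TGFB1 group TGFB1 with DMSO, the celastrol group albumin, citric acid and celastrol at 500 nM, and the combined group TGFB1 and celastrol at 500 nM. Celastrol is a plant triterpenoid, and TGFB1 is a growth factor known for making fibroblasts deposit matrix. All groups are 1 cell line grown in the same serum-containing medium. No TGFB1 dose stands in the labels. Nothing states that the 2 libraries of each treatment are separate cultures, and p-values then reflect only library-to-library spread, possibly technical. The study asked how celastrol changes gene expression driven by TGFB1.

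In the integrated stress response, kinases that sense endoplasmic reticulum stress, amino acid shortage, viral RNA or heme and mitochondrial stress phosphorylate the translation initiation factor eIF2. General translation then slows, while the ATF4 message is translated better. ATF4 protein binds DNA with partners of the C/EBP family and switches on genes for amino acid supply and, with DDIT3, for stress handling and cell death. RNA reads measure the ATF4 message and not its translation, nor the phosphorylation of eIF2.

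Sites in front of 3 of the genes show the DNA letters through which ATF4 and its relatives are known to act. Promoter windows from RefSeq (GRCh38.p14), 250 bases before to 50 after each annotated start, were present for all 10 genes, with 15 windows in all. The C/EBP-ATF composite element was searched as TGATGNAA on both strands. It was found in windows of 2 of the 10 genes, ASNS and CHAC1, and in 3.62% of all 35116 windows of the same length. The cAMP response element TGACGTCA was found in 1, PPP1R15A, and in 1.85% of all windows. These counts are by gene and the shares by window, so they are not directly comparable. Neither the heat shock element (GAA, any 2 bases, TTC, any 2 bases, GAA) nor the ER stress element (CCAAT, any 9 bases, CCACG) was found on either strand in a window of the 10, against 0.49% and 0.08% of all windows. These letters are a description of the windows and do not show that a factor bound there. The 30-base sites are shown 5′ to 3′ on the strand of the gene, with the matched element in capitals.
ASNS, chr7:97872458-97872487, minus strand: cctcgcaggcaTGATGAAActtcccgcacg
CHAC1, chr15:40953251-40953280, plus strand: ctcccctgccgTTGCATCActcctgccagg
PPP1R15A, chr19:48872352-48872381, plus strand: gcctctcttcgTGACGTCAgcacgccgggc
In ASNS the element begins 68 bases before the RefSeq start, in CHAC1 209 and in PPP1R15A 58. The CHAC1 element lies on the strand opposite the gene, so the printed letters are its reverse complement. Both the ASNS and the CHAC1 site fall within an annotated exon in GENCODE 29. PPP1R15A rose most of the 10, and the part of its window that lies in no annotated exon is given whole, with the same element in capitals.
PPP1R15A, chr19:48872171-48872391, plus strand: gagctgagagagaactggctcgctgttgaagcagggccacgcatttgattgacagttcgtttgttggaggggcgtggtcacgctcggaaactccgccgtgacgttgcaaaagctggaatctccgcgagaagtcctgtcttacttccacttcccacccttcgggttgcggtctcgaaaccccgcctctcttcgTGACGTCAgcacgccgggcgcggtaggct

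Celastrol raised most of the 10 genes, with or without TGFB1, and TGFB1 alone moved none of them past the threshold. With celastrol added to TGFB1, 8 of 10 were higher and 0 lower than with TGFB1 alone. With celastrol alone, 9 of 10 were higher and 0 lower than with vehicle. These calls are at a Benjamini-Hochberg adjusted p under 0.05 in a limma fit of 22866 genes. Celastrol changed a large share of all genes: in the first comparison 37.5% of genes tested were called higher and 63.4% in either direction, and in the second 33.8% and 55.1%. The median log2 change of the 10 was 1.46 with TGFB1 and 1.56 without it, beside medians of 0.12 and 0.08 over all genes tested. The 10 were chosen with earlier results of these data known, so these counts and medians describe the set and are no independent test. In 8 of the 10, all 4 celastrol libraries were above all 4 others, as they were in 34.4% of all genes tested. The exceptions were ASNS and PHGDH. Both libraries with celastrol alone were above both vehicle libraries in 10 of 10 (44.5% of all genes tested), and both libraries with TGFB1 and celastrol were above both with TGFB1 in 8 of 10 (45.9%). Values below are normalized reads, which are estimated reads divided by a size factor per library, and changes are log2 fold changes of value + 1 from the limma fit.

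**Figure D1:**
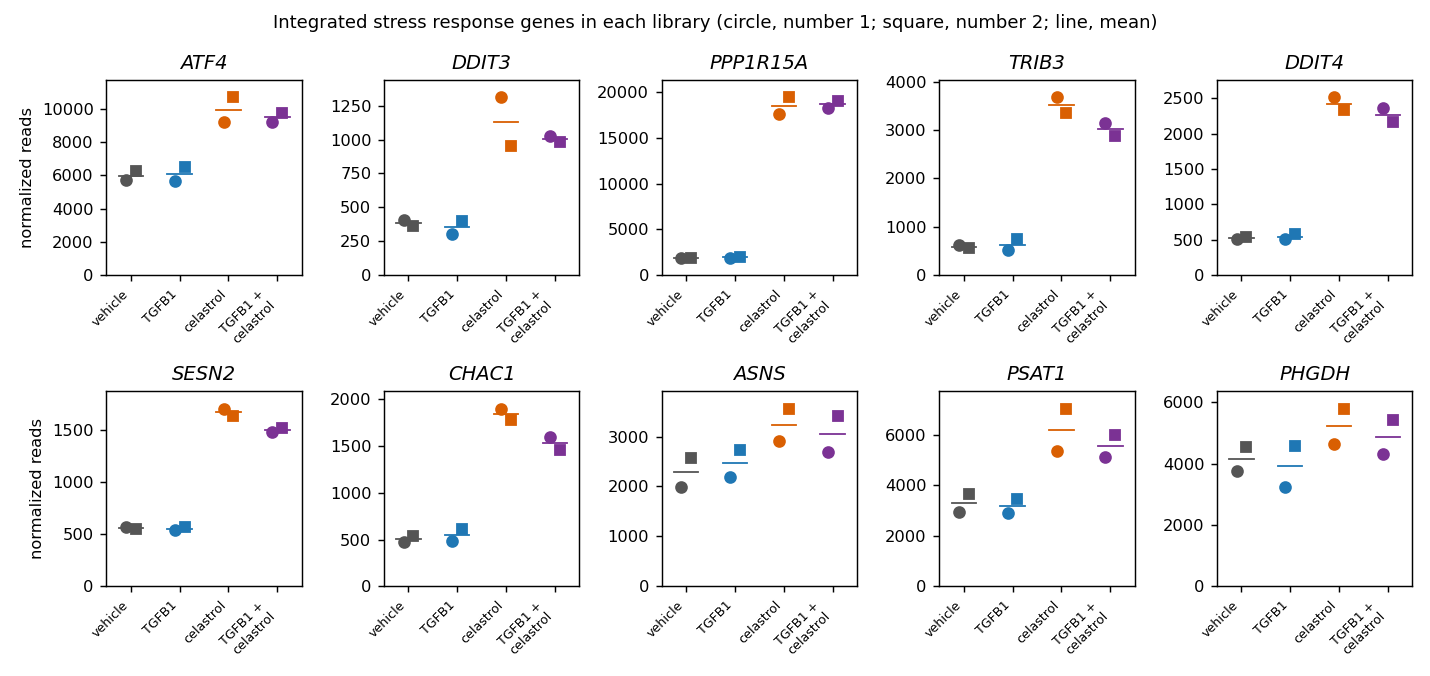
Normalized reads (vertical axes, from 0) of the 10 genes in the 4 groups (horizontal axes), with 1 point per library (circle for the library numbered 1, square for 2) and a line at the mean of 2. PPP1R15A went from 1818 to 1953 without celastrol to 17601 to 19404 with it, while in ASNS and PHGDH the 4 libraries with celastrol overlapped the 4 without it.

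The transcription factor genes rose by different amounts. ATF4 (chromosome 22, 39519672 to 39522683, build hg38, as for all genes here) had 5732 and 6236 normalized reads in vehicle. TGFB1 gave 5655 and 6467, celastrol gave 9183 and 10673, and the combination gave 9210 and 9735. Every celastrol library was above every other library. ATF4 rose by 0.73 (SE 0.09, adjusted p = 0.000218) with celastrol alone and by 0.65 (SE 0.09, adjusted p = 0.000327) with celastrol added to TGFB1, which are 1.66-fold and 1.57-fold. Reads named for 4 ATF4 pseudogenes summed to 0.449% of the ATF4 mean in vehicle and 1.04% with celastrol.

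DDIT3 (chromosome 12, 57516588 to 57521737), also known as CHOP, encodes a C/EBP relative linked to cell death under stress. It had 409 and 363 normalized reads with vehicle, 304 and 401 with TGFB1, 1311 and 956 after celastrol, and 1024 and 983 with both. The celastrol libraries were all above the others, and the 2 with celastrol alone lay furthest apart. DDIT3 rose by 1.54 (SE 0.17, adjusted p = 9.58e-05) with celastrol alone and by 1.52 (SE 0.17, adjusted p = 7.66e-05) with TGFB1. Its exons overlap those of MARS1 by 355 bases and MBD6 by 58, both on the other strand. Nothing states whether the counting used strand, so reads could be exchanged. MARS1 had 3943 to 4326 reads without celastrol and 4895 to 5600 with it, and MBD6 270 to 384 and 674 to 743.

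The feedback genes rose most. PPP1R15A (chromosome 19, 48872421 to 48876058), also known as GADD34, brings protein phosphatase 1 to phosphorylated eIF2 and so ends the response. It had 1818 and 1870 normalized reads with vehicle, 1905 and 1953 with TGFB1, 17601 and 19404 after celastrol, and 18293 and 19003 with both. It rose by 3.32 (SE 0.06, adjusted p = 1.69e-08) with celastrol alone, a 10.0-fold change. With TGFB1 present the fold was 9.66. Over all tested genes, 10.2% had a larger log2 change with celastrol alone and 12.2% with celastrol added to TGFB1. For ATF4 these shares were 30.6% and 35.2%, for DDIT3 21.3% and 24.0%, and for PHGDH 40.1% and 43.0%.

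TRIB3 (chromosome 20, 362835 to 397559), a pseudokinase induced by ATF4 and DDIT3 that restrains both and AKT, had 618 and 563 normalized reads with vehicle and 511 and 737 with TGFB1. It had 3675 and 3350 with celastrol and 3149 and 2888 with both. The groups with and without celastrol were far apart, while the 2 TGFB1 libraries differed from each other more than the 2 vehicle libraries did. TRIB3 rose by 2.57 (SE 0.15, adjusted p = 3.48e-06) and by 2.29 (SE 0.15, adjusted p = 4.73e-06) without and with TGFB1.

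Both genes that restrain mTORC1 rose. DDIT4 (chromosome 10, 72273924 to 72276036), also known as REDD1, had 508 and 540 normalized reads with vehicle, 503 and 580 with TGFB1, 2509 and 2328 after celastrol, and 2360 and 2167 with both. It rose by 2.20 (SE 0.09, adjusted p = 5.94e-07) with celastrol alone and by 2.06 (SE 0.09, adjusted p = 6.85e-07) with TGFB1. The antisense gene DDIT4-AS1, which shares 847 exon bases with it, was at 0 in all 4 libraries without celastrol and at 28.0 to 36.3 in the 4 with it. At 0 counted reads, up to 3 remain possible by counting error alone, equal to 1.80 to 4.24 normalized reads across libraries.

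SESN2 (chromosome 1, 28259518 to 28282491), which encodes the leucine sensor sestrin 2, had 569 and 551 normalized reads with vehicle, 542 and 565 with TGFB1, 1703 and 1639 after celastrol, and 1476 and 1522 with both. Libraries with celastrol alone were the highest, followed by those with both. SESN2 rose by 1.58 (SE 0.07, adjusted p = 6.75e-07) and by 1.44 (SE 0.07, adjusted p = 8.60e-07) without and with TGFB1.

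CHAC1 (chromosome 15, 40952962 to 40956512), a glutathione-degrading enzyme whose site is printed above, had 473 and 540 normalized reads with vehicle and 484 and 612 with TGFB1. It had 1895 and 1775 with celastrol and 1598 and 1459 with both, so the 2 celastrol groups did not overlap. CHAC1 rose by 1.86 (SE 0.12, adjusted p = 5.45e-06) with celastrol alone and by 1.49 (SE 0.12, adjusted p = 1.31e-05) with TGFB1. This was the furthest of the 10 from an equal response in the 2 settings, at a difference of -0.37 (95% interval -0.76 to 0.01), which did not pass the threshold (limma adjusted p = 0.208).

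Of the amino acid synthesis enzymes, PSAT1 rose in both settings, ASNS passed in 1 and PHGDH in 0. PSAT1 (chromosome 9, 78297125 to 78330093), which makes phosphoserine on the way to serine, had 2946 and 3636 normalized reads with vehicle, 2897 and 3447 with TGFB1, 5336 and 7017 after celastrol, and 5098 and 5985 with both. It rose by 0.90 (SE 0.15, adjusted p = 0.00121) with celastrol alone and by 0.81 (SE 0.15, adjusted p = 0.00182) with TGFB1. Reads named for 2 PSAT1 pseudogenes summed to 2.93% of its mean in vehicle and 3.40% with celastrol.

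ASNS (chromosome 7, 97851677 to 97872542), asparagine synthetase, is a long-studied ATF4 target and carries the composite element printed above. It had 1996 and 2569 normalized reads with vehicle, 2196 and 2735 with TGFB1, 2916 and 3554 after celastrol, and 2691 and 3418 with both. The combined group overlapped the TGFB1 group, since its lower library was below the higher TGFB1 library. ASNS rose by 0.51 (SE 0.17, adjusted p = 0.0307) with celastrol alone. With TGFB1 the change was 0.31 (SE 0.17, adjusted p = 0.141) and did not pass. The first call was lost without vehicle replicate 1 (adjusted p = 0.197) or celastrol replicate 2 (0.213), with a common total (0.0557), with a common median (0.117) and without a variance trend (0.101). ASNS also shares 1985 exon bases with a same-strand transcript of clone name that held 65.8 to 130 normalized reads.

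PHGDH (chromosome 1, 119648411 to 119744218), the first enzyme of serine synthesis, had 3767 and 4554 normalized reads with vehicle, 3247 and 4582 with TGFB1, 4659 and 5792 after celastrol, and 4304 and 5442 with both. It differed by 0.33 in each setting (SE 0.18, adjusted p = 0.166 without and 0.152 with TGFB1), with 95% intervals of -0.09 to 0.75 in both, and did not pass in this fit, which has no term for the library number.

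In ASNS, PSAT1, PHGDH, ATF4 and PPP1R15A the library numbered 2 was above the library numbered 1 in all 4 groups. For ASNS that gap was 0.29 to 0.36 on the log2 scale and for PHGDH 0.27 to 0.50. The celastrol differences were 0.51 without and 0.31 with TGFB1 for ASNS, and 0.33 in each setting for PHGDH. DDIT3 and TRIB3 showed it in 1 of the 4 groups.

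**Figure D2:**
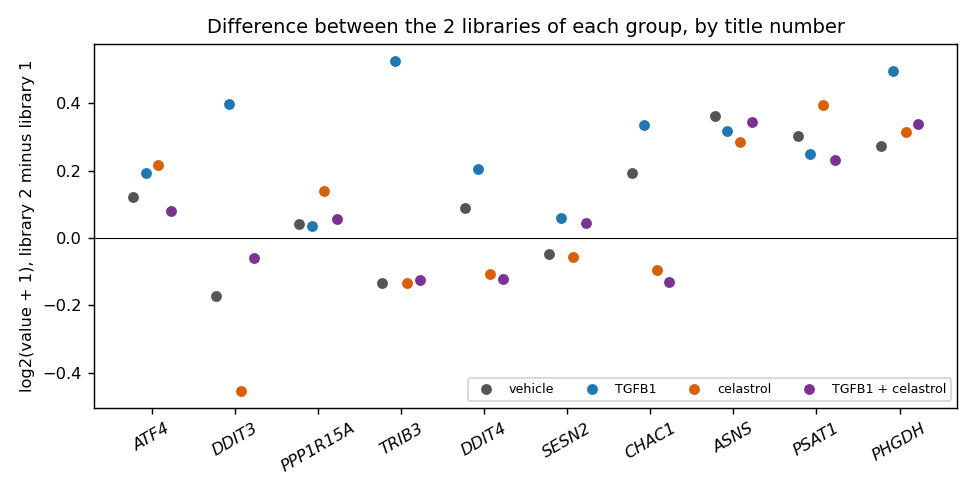
Difference between the 2 libraries of a group, library 2 minus library 1 on the log2(value + 1) scale (vertical axis), for each of the 10 genes (horizontal axis) and each group (colour). All 4 points of ASNS, PSAT1, PHGDH, ATF4 and PPP1R15A are above 0, and those of DDIT3 run from -0.46 to 0.40.

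The sizes of the rise had an order that was partly resolved. PPP1R15A stood apart from TRIB3, the next, in both settings, as their 95% intervals did not overlap. With celastrol alone, TRIB3, DDIT4, CHAC1, SESN2, DDIT3, PSAT1, ATF4, ASNS and PHGDH followed, each with an interval overlapping that of its neighbour. With TGFB1 the gap between SESN2 and PSAT1 was also free of overlap.

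**Figure D3:**
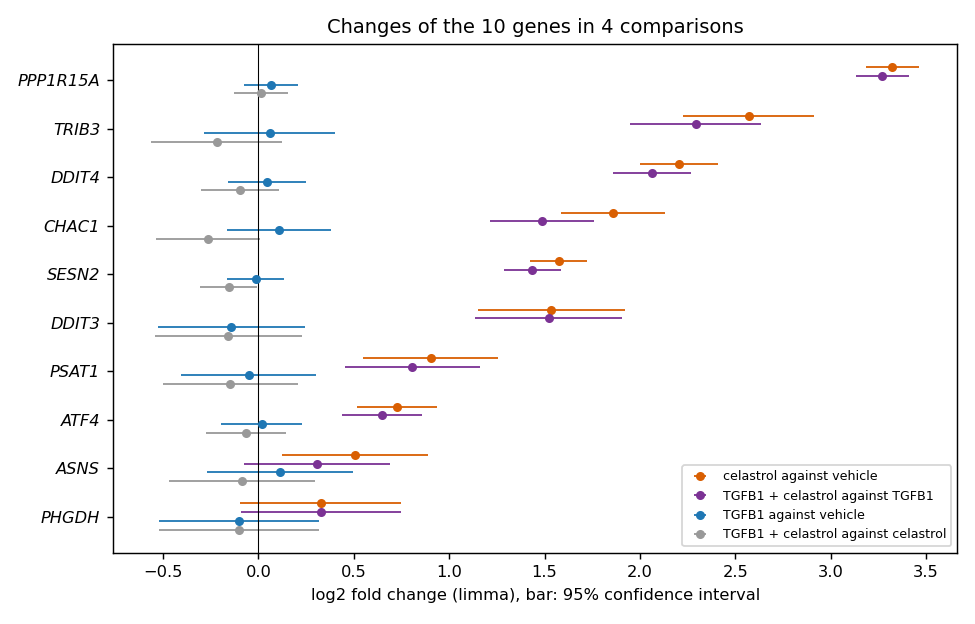
Log2 fold changes from the limma fit (horizontal axis) of the 10 genes (vertical axis), with points for 4 comparisons (colour) and bars for 95% confidence intervals. PPP1R15A lies at 3.32 and 3.27 in the 2 celastrol comparisons, and all TGFB1 comparisons lie within -0.26 and 0.11.

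Levels were compared between genes per kilobase of the longest principal transcript in GENCODE 29. With vehicle, ATF4 was highest at 2964 ± 176 normalized reads per kilobase (SD, n = 2), followed by PHGDH (1610 ± 215) and PSAT1 (1504 ± 223), whose ranges overlapped. ASNS followed with 969 ± 172, PPP1R15A with 776 ± 15.4 and DDIT3 with 411 ± 34.7. CHAC1 (325 ± 30.7) and DDIT4 (300 ± 13.0) overlapped, and TRIB3 (236 ± 15.6) and SESN2 (162 ± 3.77) were lowest. With celastrol the order was led by PPP1R15A at 7781 ± 536, ahead of ATF4 at 4917 ± 522. PSAT1 (2823 ± 543) and PHGDH (2021 ± 310) came next. TRIB3, DDIT4, ASNS, DDIT3 and CHAC1 then lay between 1406 and 1177, each overlapping its neighbour, and SESN2 was again lowest at 484 ± 13.2.

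TGFB1 did not move these genes detectably. Against vehicle, 0 of 10 passed in the limma fit, where 23.5% of all genes tested were called, 12.8% higher and 10.6% lower. At an unadjusted p under 0.05 it was 0 of 10 and 35.5% of all genes tested. The changes ran from -0.14 (DDIT3) to 0.11 (ASNS), and the 95% interval was -0.08 to 0.20 for PPP1R15A and -0.19 to 0.23 for ATF4. The signs of these small values changed with the scaling. With a common total, which moved the median of all genes by -0.22, SESN2 was lower (-0.24, adjusted p = 0.0258). In the presence of celastrol, TGFB1 against celastrol alone also gave 0 of 10 in the limma fit, where 0.00875% of all genes tested were called, 0.00437% in each direction. At an unadjusted p under 0.05 it was 1 of 10, SESN2 (-0.16), and 3.8% of all genes tested.

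The celastrol response did not differ detectably between settings for any of the 10. The interaction, the celastrol difference with TGFB1 minus that without, gave 0 of 10 calls in the limma fit, where 11.3% of all genes tested were called, 4.36% higher and 6.89% lower. At an unadjusted p under 0.05 it was 0 of 10 and 25.8% of all genes tested. The estimates lay between -0.37 (CHAC1) and 0.00 (PHGDH), and the widest 95% bounds were -0.76 and 0.60. Without TGFB replicate 1, TRIB3 (-0.54, adjusted p = 0.0335) and CHAC1 (-0.54, adjusted p = 0.0466) passed as lower.

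The wider pathway was described through 8 lists with 139 genes in the table, the 10 left out. These lists too were chosen with earlier results of these data known. FGF21, a further listed gene, was not in the table. With celastrol added to TGFB1, 49 of the 139 were higher and 55 lower in the limma fit, beside 37.5% and 25.9% of all genes tested. With celastrol alone, 59 were higher and 39 lower, beside 33.8% and 21.3%. The median over the 139 was -0.05 with TGFB1 and 0.11 without it. With a common median across libraries, which moved the median of all genes by -0.29, 32 were higher with TGFB1.

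Upstream, the kinases of eIF2 did not rise together. With celastrol added to TGFB1, EIF2AK1, which encodes HRI, fell by 0.28 (SE 0.05, adjusted p = 0.00186). EIF2AK2 (PKR, 0.05), EIF2AK3 (PERK, 0.11) and EIF2AK4 (GCN2, -0.11) did not pass. With celastrol alone EIF2AK3 rose by 0.81, from 972 and 918 normalized reads to 1648 and 1663, while EIF2AK1 fell by 0.16 and EIF2AK4 fell by 0.23. EIF2AK3 was also higher with TGFB1 alone (0.61), at 1486 and 1401. PPP1R15B, the constitutive partner of the eIF2 phosphatase, rose by 0.78 with TGFB1 and by 1.20 without it. DNAJC3, an inhibitor of these kinases, fell by 0.83 with celastrol added to TGFB1. GCN1, which activates GCN2, fell by 0.78 there, and EIF2S1, the phosphorylated subunit of eIF2, fell by 0.65. With celastrol alone DNAJC3 was at -0.15 (not passing), GCN1 at -0.54 and EIF2S1 at -0.26. TGFB1 alone had raised DNAJC3 by 0.62 and EIF2S1 by 0.38. Of the 22 genes in this list, 4 were higher and 13 lower with celastrol added to TGFB1, beside 37.5% and 25.9% of all genes tested.

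Among 19 partners of ATF4 and other stress regulators, 9 were higher and 4 lower with celastrol added to TGFB1. Over all genes tested the shares were 37.5% and 25.9%. ATF3, a stress-induced repressor and activator, went from 93.2 and 129 normalized reads with TGFB1 to 2086 and 2199 with both, a rise of 4.27 (SE 0.14, adjusted p = 1.93e-07). TRIB1, a relative of TRIB3, rose by 2.72 and CEBPB, a partner of ATF4 on the composite element, by 1.27. ATF5, an ATF4 relative, rose by 0.32 (adjusted p = 0.0348) and was at 0.24 (adjusted p = 0.104) with celastrol alone. CREB3L2, a transcription factor of the secretory pathway, fell by 1.12 but did not pass with celastrol alone (-0.06). TGFB1 alone had raised CREB3L2 by 1.14. XBP1 (-0.14) did not pass with TGFB1 but rose by 0.42 without it.

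The supply genes were mixed. Of 16 enzymes of amino acid and one-carbon metabolism, 7 were higher and 2 lower with celastrol added to TGFB1. Over all genes tested the shares were 37.5% and 25.9%. CTH, which makes cysteine, rose by 3.46 (SE 0.18, adjusted p = 1.57e-06), from 48.0 and 60.2 normalized reads to 609 and 592. TGFB1 alone had lowered CTH by 1.09, and celastrol alone raised it by 2.35. PSPH, the last enzyme of serine synthesis, rose by 0.90 and GPT2, a mitochondrial alanine aminotransferase, by 1.05, whereas ALDH18A1, of proline synthesis, fell by 0.87. The 3 serine synthesis genes thus stood at 0.33 (PHGDH, not passing), 0.81 (PSAT1) and 0.90 (PSPH).

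Of 13 amino acid transporters, 6 were higher and 4 lower with celastrol added to TGFB1, beside 37.5% and 25.9% of all genes tested. SLC38A2, a neutral amino acid carrier, rose by 1.47, SLC3A2, the heavy chain shared by several carriers, by 1.34, and SLC38A1 by 0.68. TGFB1 alone had lowered SLC38A2 by 0.62, and celastrol alone raised it by 0.94. SLC7A11, the cystine carrier, rose by 0.80 (SE 0.13, adjusted p = 0.000656), while SLC7A1, which imports arginine and lysine, fell by 0.71. With celastrol alone SLC7A1 was at 0.05 and did not pass, and TGFB1 alone had raised it by 0.69. Of 20 cytosolic aminoacyl-tRNA synthetases, which load amino acids onto tRNA, 7 were higher and 8 lower, beside the same shares of all genes. CARS1 rose by 0.85 and YARS1 by 0.50, whereas HARS1 fell by 1.14 and FARSB fell by 0.63.

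Of 12 genes of translation and mTORC1 control, 3 were higher and 5 lower with celastrol added to TGFB1. Over all genes tested the shares were 37.5% and 25.9%. CPEB4, an RNA-binding translation regulator, rose by 0.72 and EIF5 by 0.57, while MTOR fell by 0.59 and EIF4EBP2 fell by 0.57. Of 17 redox, death and secreted outputs, 11 were higher and 2 lower, beside the same shares of all genes. The death gene BCL2L11 rose by 2.26, STC2, a secreted glycoprotein, by 2.24, KLHL24 by 1.78 and VLDLR by 1.59. TGFB1 alone had lowered STC2 by 1.46 and KLHL24 by 0.84, and had raised BCL2L11 by 0.86. With celastrol alone the rises were 0.86 for STC2, 1.07 for KLHL24, 2.95 for BCL2L11 and 1.48 for VLDLR. Of 20 genes of the other unfolded protein response branches, 2 were higher and 17 lower with celastrol added to TGFB1, beside 37.5% and 25.9% of all genes tested. TGFB1 alone had raised 15 and lowered 1 against vehicle, beside 12.8% and 10.6% of all genes tested. The chaperone HSPA5 fell by 0.30 (SE 0.06, adjusted p = 0.00290) with celastrol added to TGFB1, and HYOU1 fell by 0.84. SEL1L fell by 0.54, EDEM1 fell by 0.76 and SYVN1, a ubiquitin ligase, fell by 1.18. SEL1L did not pass with celastrol alone (-0.08). With celastrol alone 3 of the 20 were higher and 9 lower, beside 33.8% and 21.3% of all genes tested. HSPA5 rose by 0.40, from 17806 and 17650 normalized reads to 22553 and 24216. The other two, named after their values were seen, were the stress sensor ERN1, which rose by 1.68, and the co-chaperone DNAJB9, which rose by 1.21. With celastrol added to TGFB1, ERN1 rose by 0.38 and DNAJB9 fell by 0.41.

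**Figure D4:**
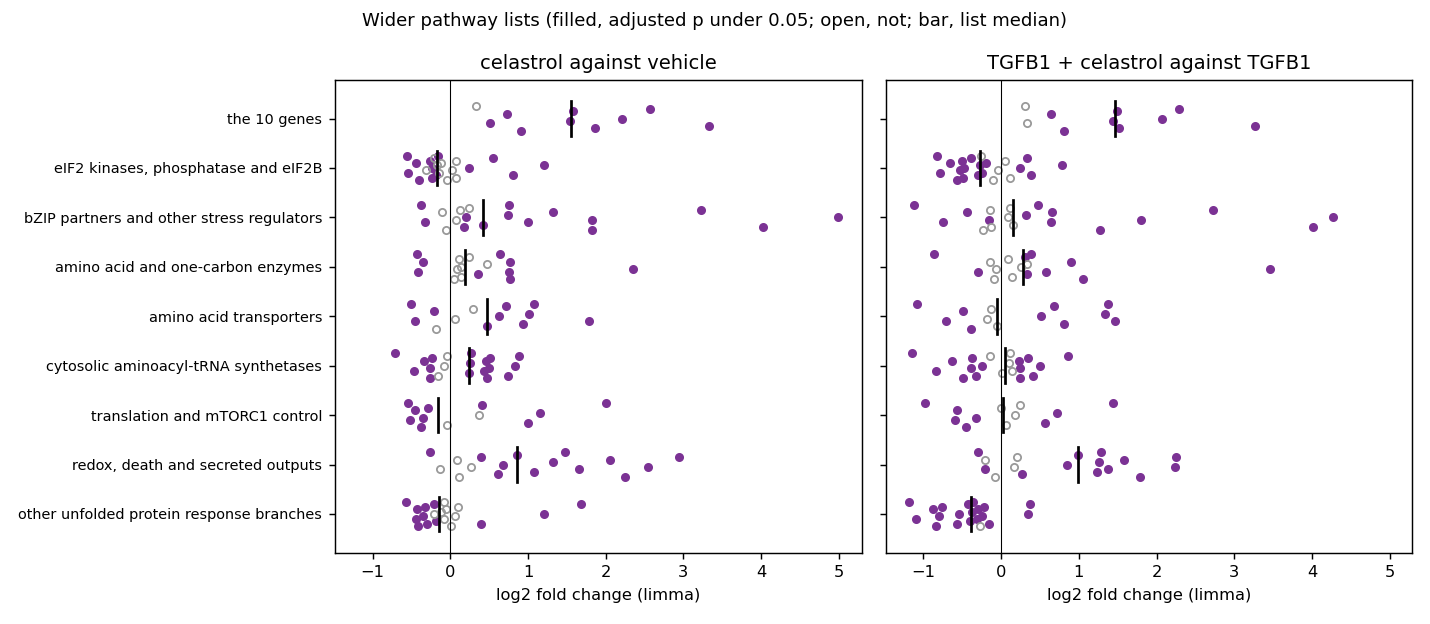
Log2 fold changes (horizontal axes) of the 10 genes and of 8 wider pathway lists (vertical axis) with celastrol alone against vehicle and with celastrol added to TGFB1 against TGFB1, with 1 point per gene, filled where the limma adjusted p is under 0.05, and a bar at the list median. The median of the 10 lies at 1.56 and 1.46, and that of the other unfolded protein response branches at -0.15 and -0.39.

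Relatives of the members in these lists did not all follow them. These relatives were picked after their values were seen. DDIT4L, the relative of DDIT4, fell by 0.98 with celastrol added to TGFB1 (SE 0.11, adjusted p = 9.91e-05), from 393 and 350 to 180 and 195 normalized reads. SESN1 was at 0.24 (adjusted p = 0.0981) and fell by 0.35 with celastrol alone (adjusted p = 0.0287), while SESN3 rose by 1.44 (adjusted p = 0.00767), with 143 and 55.3 normalized reads in the TGFB1 libraries and 261 and 225 with both. CHAC2, the other glutathione-degrading relative of CHAC1, was at -0.21 (adjusted p = 0.503) and at 37.5 to 57.2 normalized reads in every library. TRIB2 rose by 1.63 with TGFB1 alone and by 1.82 with celastrol alone, and was at 0.16 (adjusted p = 0.0572) with celastrol added to TGFB1.

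The genes whose pattern over the 8 libraries was most like that of ATF4 were TM2D3, ULBP3, ZXDB, SHMT2 and MICB. Likeness was the root mean square difference of log2 values after subtracting each gene's vehicle mean, over 12287 genes averaging 50 normalized reads or more, and was 0.05 to 0.08 for these 5. SHMT2, a mitochondrial one-carbon enzyme, is also in the pathway list. Among the other 9 genes described here the nearest was PSAT1 (0.13), then ASNS (0.20), and the farthest PPP1R15A (1.86).

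Libraries held 20716710 to 42518361 estimated reads. The fibroblast label held: all 10 fibroblast markers were in the table, with sums of 471340 to 674411 normalized reads in the libraries without celastrol and 381771 to 475528 in those with it. Of 6 keratinocyte markers 2 were in the table (sums of 880 to 1059 without and 887 to 1065 with celastrol). Of 5 melanocyte markers 3 were in the table (222 to 1074 and 1270 to 1365). For immune cells it was 4 of 5 (245 to 369 and 385 to 525) and for endothelial cells 4 of 5 (52.7 to 98.9 and 354 to 465). KRT5, KRT14, KRT1, DSG3, CDH5, TYR, DCT and CD3E were not in it. The melanocyte, immune and endothelial sums were higher in every library with celastrol than in every library without it. Most of the stress genes were higher there as well. MITF made up most of the melanocyte sums, with means of 1044 with vehicle, 217 with TGFB1 and 1219 with celastrol. CD68 made up most of the immune sums (290, 300 and 378), and its libraries overlapped. In libraries without and with celastrol, MLANA had 0 to 1.23 and 84.8 to 124 normalized reads, and PECAM1 0 to 0.60 and 46.4 to 72.9. VWF had 17.1 to 32.5 and 201 to 276, and CD14 4.92 to 6.00 and 35.6 to 50.6. These genes were picked after their values were seen. PMEL, KDR and KRT10 overlapped between libraries with and without celastrol. The ranges of the fibroblast sums overlapped slightly and were mostly lower with celastrol. These fibroblast sums were mostly COL1A1, COL1A2 and VIM. COL1A1 averaged 154850 with vehicle and 131043 with celastrol, VIM 112733 and 113801, and PDGFRA 7742 and 13121. The part of these shifts in the results was not tested. Fewer cells of a type and less RNA per cell cannot be told apart in bulk libraries.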

How the data were processed

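Total RNA from CCD-1077Sk fibroblasts was extracted with TRIzol and made into libraries with a VAHTS total RNA kit, per the labels' protocols. The authors deposited 1 table of normalized signal per gene and library. Partek 10.0.22, STAR 2.7.3a, DESeq2 and build hg38 are named in the submitters' processing notes. No source used here gives their roles, the counting rule or its use of strand. The deposited signal was read as estimated reads over a size factor, because library medians of the ratio to the geometric mean were equal (1.0077). Between 66.5% and 72.4% of values above 0 were whole multiples of 1 read within 0.02 reads, so no count model was fitted. The step gives 20716710 to 42518361 reads per library. No gene is in the table whose largest library had under 11 estimated reads.

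Values were analysed as log2(value + 1) for the 22866 of 24598 genes with at least 10 in at least 2 libraries, with limma 3.58.1 in R 4.3.3. The model had 1 mean per group over all 8 libraries, a variance trend and 4 residual degrees of freedom. Tests were two-sided, with Benjamini-Hochberg adjustment over all genes in each of 5 comparisons. The fit was tested on simulated data. Table ends were taken as 1 base past the gene, since the end minus 1 equalled the GENCODE 29 end in 16346 of 22999 genes matched by name and the end itself in 178. Overlaps and lengths are from GENCODE 29, which may not be the authors' annotation.

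The model has no replicate block. Named genes were the 10, up to 4 per pathway list with the smallest p in celastrol with TGFB1, 11 listed regulators, and the 5 most like ATF4. The members and lists were chosen with earlier results of these data known. The 4 promoter elements were chosen after the data were seen, and all 4 are reported. Lengths were first taken over all exons of a gene and were changed to the longest principal transcript after the exon total of PHGDH was seen to be inflated by other isoforms. The 18 alternatives (17 for the interaction) were other scalings, pseudocounts of 0.5 and 5, other filters and variance models, only the 4 libraries compared, the block and each library left out.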

Additional observations from a re-analysis of the deposited data

Results flagged for a closer look

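The celastrol response passed the interaction test of the limma fit (adjusted p under 0.05) for none of the 10 genes, though TRIB3 and CHAC1 passed without TGFB replicate 1. Of the 139 pathway genes, 6 were higher and 31 lower by the interaction, beside 4.36% higher and 6.89% lower of all genes tested. Of the 40 named among them, 23 passed. Most of these names were chosen by small p-values for celastrol with TGFB1, which is 1 term of the interaction, so that count is no independent measure. The difference, in log2 units with TGFB1 minus without, was -0.70 for EIF2AK3, -0.42 for PPP1R15B, -0.68 for DNAJC3 and -0.40 for EIF2S1 in the eIF2 list. It was -0.56 for CEBPB, -0.56 for XBP1, -1.06 for CREB3L2 and -1.30 for TRIB1 among the regulators. Among the supply genes it was -0.43 for ALDH18A1, 1.11 for CTH, -0.76 for SLC7A1, 0.53 for SLC38A2 and -0.44 for HARS1. It was -1.28 for CPEB4 and -0.42 for EIF5 in translation control, and -0.69 for BCL2L11, 1.38 for STC2 and 0.71 for KLHL24 among the outputs. In the other unfolded protein response branches it was -0.70 for HSPA5, -0.63 for HYOU1, -0.46 for SEL1L, -0.45 for EDEM1 and -0.74 for SYVN1. None of these genes was called between the 2 celastrol groups, where 0.00875% of all genes tested were. HSPA5 had 22553 and 24216 normalized reads with celastrol alone and 22202 and 23242 with both, against 17806 and 17650 with vehicle and 27131 and 29015 with TGFB1.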

How the results depend on the processing

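The counts of the 10 genes called higher with celastrol stayed within 8 to 10 under all 18 alternatives in both settings, with 0 lower, and 0 of 360 alternative values there changed sign. The call of ASNS with celastrol alone was lost under the 5 alternatives given beside it. PHGDH with TGFB1 passed without TGFB replicate 2 (0.58, adjusted p = 0.0257). With a common total, ASNS (0.46, adjusted p = 0.0392) and PHGDH (0.48, adjusted p = 0.0458) passed with TGFB1.

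The titles number the libraries of each group 1 and 2, but the labels do not state that equal numbers share a culture or day, and another label numbers celastrol replicate 2 as 3. Over 14739 genes the difference between the 2 libraries correlated at 0.17 to 0.23 in the 6 pairs of groups, a hint from the data and not the design. With the number as a replicate block, ASNS passed with TGFB1 (adjusted p = 0.000439) and PHGDH with TGFB1 (0.00100) and without it (0.00125), no other call of the 10 changed, and 51 pathway genes were lower by the interaction, against 31.

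In the comparisons of TGFB1 and the interaction, 56 of the alternative values of the 10 had the other sign, none past the threshold in either fit. For TGFB1 alone a common total gave -0.11 for ASNS, -0.21 for ATF4 and -0.12 for CHAC1. It gave -0.18 for DDIT4, -0.16 for PPP1R15A and -0.17 for TRIB3. A common median gave 0.017 for PHGDH, 0.070 for PSAT1 and 0.10 for SESN2. For the interaction a common total gave 0.038 for ASNS, 0.16 for ATF4, 0.22 for DDIT3, 0.10 for DDIT4, 0.19 for PPP1R15A, 0.14 for PSAT1 and 0.10 for SESN2, and a common median gave -0.12 for PHGDH. Leaving out 1 library, TGFB1 alone ran from -0.068 to 0.30 for ASNS, -0.080 to 0.11 for ATF4, -0.061 to 0.28 for CHAC1, -0.34 to 0.056 for DDIT3, -0.058 to 0.15 for DDIT4, -0.35 to 0.15 for PHGDH, -0.20 to 0.10 for PSAT1, -0.046 to 0.014 for SESN2 and -0.21 to 0.32 for TRIB3. TGFB1 with celastrol ran from -0.26 to 0.087 for ASNS, -0.17 to 0.044 for ATF4, -0.39 to 0.070 for DDIT3, -0.27 to 0.067 for PHGDH, -0.058 to 0.083 for PPP1R15A and -0.34 to 0.050 for PSAT1. The interaction ran from -0.19 to 0.028 for ATF4, -0.24 to 0.21 for DDIT3, -0.25 to 0.25 for PHGDH, -0.12 to 0.018 for PPP1R15A and -0.29 to 0.10 for PSAT1.

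With a common total, 1 of the 10 was lower with TGFB1 alone, and of the pathway genes 25 were higher and 33 lower there, against 51 and 13. By the interaction 16 were higher and 18 lower, against 6 and 31. With a common median, 32 pathway genes were higher with celastrol added to TGFB1, against 49, and 56 were lower by the interaction. Without a variance trend, 33 were higher with TGFB1 alone, and by the interaction 3 were higher and 14 lower. Leaving out 1 library gave 8 to 14 pathway genes lower with TGFB1 alone and 25 to 42 lower with celastrol alone, the lowest of each without control replicate 1. By the interaction it gave 2 to 6 higher, the lowest without TGFB_celastrol replicate 2, and 0 to 2 of the 10 lower.

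Over all genes, the counts ran over the alternatives from 1417 to 4778 higher (2937 as reported) and 1322 to 5399 lower (2427) with TGFB1 alone, 4619 to 8444 higher (7737) and 3359 to 7470 lower (4868) with celastrol alone, 4990 to 9809 higher (8564) and 4183 to 9094 lower (5933) with celastrol added to TGFB1, 0 to 2 higher (1) and 0 to 1 lower (1) for TGFB1 with celastrol, and 376 to 2474 higher (997) and 668 to 2748 lower (1576) by the interaction. The causes of these shifts were not tested. A lone library of a group was assumed to vary like the other groups, and the fit on 4 libraries cannot give the interaction. For ASNS with TGFB1 and for PHGDH, passing depended, among other settings, on whether the library number was in the fit. The labels state no pairing, so 2 libraries per group cannot settle which fit applies.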
